A study of Mus musculus with 8 samples.

Results

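The 10 genes described here mark the surface or the resting state of muscle stem cells: Vcam1, Itga7, Sdc3, Sdc4, Calcr, Cxcr4, Cd34, Megf10, Chodl and Spry1. They were taken by name from the authors' deposited table, where all 10 were found among 16573 genes. That table divides many genes into several rows, such as Cd34 and Cd34.1, and the 10 genes hold 23 of its 36743 rows. The RNA came from mouse tibialis anterior and extensor digitorum longus 3 days after injury with notexin, a snake venom toxin that destroys muscle fibres, in 4 libraries of the genotype Psat1iKO and 4 of the genotype Ctrl. Psat1 encodes an aminotransferase of serine synthesis, and all libraries of both genotypes came from injured muscle. The labels give no age, no Cre driver and no agent that induces the deletion, and they do not say which cells carry it or whether each library is a different animal. A p-value here thus reflects spread among these 8 libraries only, and that spread may be technical. Flow-sorted muscle stem cells are named as the cell type, while the design text describes RNA extracted from the muscles. No antibody of the sort is named, so it is not known whether any of the 10 proteins was used to select the cells.

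Muscle stem cells rest between the muscle fibre and its basement membrane until injury wakes them, after which they divide, commit to the muscle lineage and fuse or return to rest. Adhesion molecules and co-receptors on their surface hold them in this niche and pass on signals from it, and several of these molecules are used to isolate the cells. Some markers stay on dividing myoblasts, while others, such as the calcitonin receptor, are known to be high in resting cells and lost on activation. Spry1 acts inside the cell as a brake on growth factor signalling during the return to rest.

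None of the 10 genes differed between Psat1iKO and Ctrl past the authors' threshold. A row is said to be called where the authors' deposited table gives an adjusted p (DESeq2) under 0.05, and 0 of the 23 rows were called, against 0.656% of all rows. Among leading rows, the row of highest mean count of each gene, 0 of 10 were called, against 0.338% of all 16573 leading rows. At an unadjusted p under 0.05 there were also 0 of 23 rows and 0 of 10 leading rows, where 6.04% of all rows and 4.09% of all leading rows passed. The counts of 0 are thus close to what the background share gives for so few rows. Leading rows had log2 fold changes (Psat1iKO minus Ctrl throughout) above 0 for 6 genes and below 0 for 4, with a median of 0.03, beside a median of -0.01 over all leading rows. For 7 of the 10 the 95% interval lay inside a 2-fold change, a share that was 62.0% over all leading rows.

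Values per library were not analysed here. Group levels are fitted means, computed from the authors' mean normalized count over 8 libraries and the fold change, and an error is the authors' DESeq2 standard error (SE). From the SE an average coefficient of variation (CV) between libraries of a group was derived for 4 against 4 libraries, and it holds counting error as well as the spread between libraries. The targeted gene was checked first: Psat1.1, with 99.6% of the Psat1 counts, stood at -0.49 ± 0.0675 on the log2 scale (DESeq2 adjusted p = 1.22e-09) per the authors' deposited table. Its fitted mean was 14362 in Psat1iKO and 20204 in Ctrl, so most of the transcript was still counted in Psat1iKO. How complete the deletion was could not be tested here, and this limits what the values of other genes can show. Next, 9 genes of muscle stem cell identity were looked at, all measured, with a median mean count of 6360 in their leading rows. Their presence cannot tell sorted cells from whole muscle, which would hold these transcripts too. Pax7, the transcription factor that defines these cells, had 1060 in its leading row and Myod1, the factor of commitment, had 22818 per the authors' deposited table.

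The 10 genes spanned a 1585-fold range of level per kilobase of transcript, and their order was the same in both genotypes. Summed over its rows and divided by the longest RefSeq-matched transcript, Itga7 had a fitted mean count of 12221 per kb in Psat1iKO and 12332 per kb in Ctrl. It lay above 98.7% of the 14738 genes with a known length. Sdc4 followed with 4110 per kb in Psat1iKO and 4046 per kb in Ctrl, and Vcam1 with 3687 per kb in Psat1iKO and 3569 per kb in Ctrl. A middle group held Sdc3, Cxcr4, Cd34, Spry1 and Megf10, from 350 to 695 per kb in Psat1iKO and from 359 to 602 per kb in Ctrl. Chodl had 28.0 per kb in Psat1iKO and 20.4 per kb in Ctrl. Calcr was lowest, with 8.27 per kb in Psat1iKO and 7.22 per kb in Ctrl, and only 16.9% of genes lay below it.

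Several neighbours in this order lay closer together than their leading rows vary between single libraries of a group. Sdc3 lay 18.2% above Cxcr4, Cxcr4 36.7% above Cd34, Cd34 8.18% above Spry1 and Spry1 4.84% above Megf10 per kb. Each of these gaps was smaller than the combined CV of its pair, which was between 30.4% and 50.9%. That CV comes from the leading rows alone, while the levels are summed over rows. The leading row holds 37.7% of the counts of Spry1 and 70.5% of those of Cd34. The CV is also the spread of single libraries and not the error of a mean, and the order of these genes was not tested. Sdc4 lay 12.4% above Vcam1, close to a combined CV of 10.9%. The steps from Itga7 to Sdc4, from Vcam1 to Sdc3, from Megf10 to Chodl and from Chodl to Calcr were each more than the combined CV. Levels per kb also depend on the transcript chosen for the length.

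**Figure D1:**
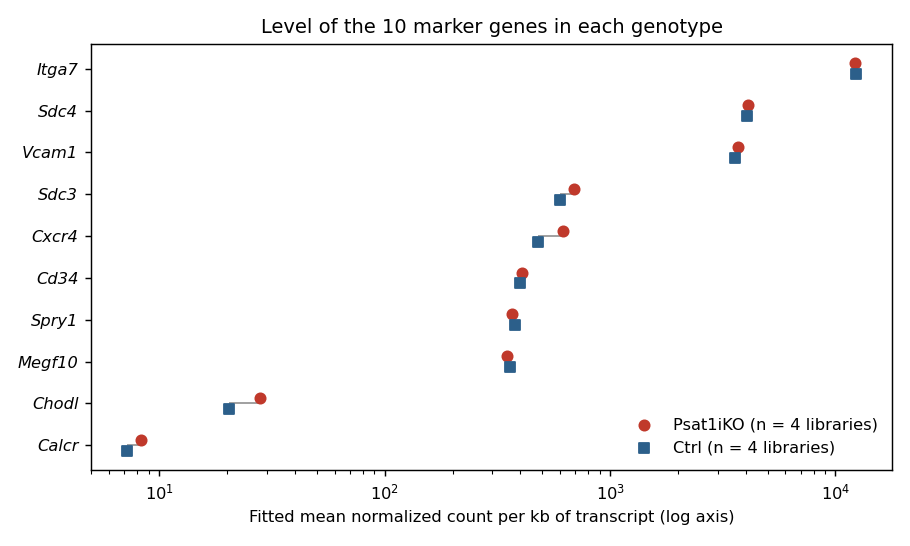
Fitted mean normalized count per kb of transcript (log axis) of the 10 marker genes, with Psat1iKO as circles and Ctrl as squares, rows of a gene summed; each point is fitted from 4 libraries and has no error bar of its own. Itga7 is highest and Calcr lowest in both genotypes, and the points of Psat1iKO and Ctrl lie widest apart for Chodl and Cxcr4.

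Itga7 encodes the laminin-binding integrin alpha 7, which anchors muscle stem cells and fibres to the basement membrane, and its level differed least. It lies on chromosome 10 from 128933818 to 128958282 (GRCm38, plus strand), and its longest RefSeq-matched transcript has 25 exons. The leading row had a fitted mean of 45459 in Psat1iKO and 46088 in Ctrl, with a log2 fold change of -0.02 ± 0.0535 per the authors' deposited table. Its 95% interval allowed a fold between 0.917 and 1.06, the narrowest of the 10 genes, and its CV was 5.25%. The other 3 rows held 5.34%, 1.14% and 0.769% of the gene's counts. Their log2 fold changes per the authors' deposited table were 0.01 ± 0.123 for Itga7.2, 0.31 ± 0.267 for Itga7.3 and 0.19 ± 0.197 for Itga7.1, each with an interval inside 2-fold. Integrin alpha 7 has known splice forms, and the rows could not be matched to them. Summed over its rows, Itga7 made up 61.0% of the counts of all 10 genes.

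Vcam1 encodes an immunoglobulin-type adhesion molecule that binds integrin alpha 4 beta 1 and is the usual antigen for sorting muscle stem cells. It has 1 row and lies on chromosome 3 from 116109949 to 116129688 (minus strand, 9 exons). Its fitted mean was 12790 in Psat1iKO and 12379 in Ctrl, a log2 fold change of 0.05 ± 0.0832 per the authors' deposited table (DESeq2 adjusted p = 0.99999). The 95% interval allowed a fold between 0.923 and 1.16, so a change of 2-fold lay far outside it. Vcam1 is also made by activated endothelium and by macrophages, whose markers are given further on.

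Genes that work with these adhesion molecules were likewise not called. The list held 24 integrin subunits, laminin chains and adhesion adaptors, all measured, with 0 leading rows called in either direction and 1 higher and 0 lower at an unadjusted p under 0.05. Its median log2 fold change was 0.00, with 13 genes above 0 and 11 below. Itgb1, the beta chain that pairs with integrin alpha 7, had 0.00 ± 0.0396 on a mean count of 24506 per the authors' deposited table. Ptk2, the focal adhesion kinase, had the smallest unadjusted p of the list, 0.0144, at 0.19 ± 0.0768 per the authors' deposited table. The actin linker talin had 0.18 ± 0.106 in its leading row Tln1.3 and -0.23 ± 0.102 in Tln1.2, a row of nearly the same mean count, per the authors' deposited table. The laminin chain Lamb2 likewise had 0.22 ± 0.137 in its leading row and -1.01 ± 0.343 in Lamb2.1, with 19.1% of the counts, per the authors' deposited table. Itgb7 stood at -1.25 ± 0.848 there, on a mean count of 37.0, and Itga4, the alpha chain of the Vcam1 receptor, at -0.01 ± 0.451 on 67.7.

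The syndecans Sdc3 and Sdc4 are heparan sulfate proteoglycans of the cell surface that present growth factors such as FGF2 and HGF to their receptors. Sdc4 has 1 row and lies on chromosome 2 from 164424247 to 164443887 (minus strand, 5 exons). Its fitted mean was 10102 in Psat1iKO and 9945 in Ctrl, with a log2 fold change of 0.02 ± 0.0737 per the authors' deposited table and a 95% interval for the fold of 0.919 to 1.12. Sdc3, which takes part in Notch signalling in these cells, lies on chromosome 4 from 130792537 to 130826319 (plus strand, 5 exons). Its leading row had a fitted mean of 3329 in Psat1iKO and 2943 in Ctrl, a log2 fold change of 0.18 ± 0.136 per the authors' deposited table, with an interval of 0.94 to 1.36 for the fold. The 2 minor rows had values above 0 with intervals that crossed 0, Sdc3.3 at 1.25 ± 2.15 on a mean count of 87.2 and Sdc3.1 at 4.83 ± 3.4 on 2.71 per the authors' deposited table. The SE of Sdc3.3 was above those of 95.5% of the 200 minor rows nearest in mean count, whose median was 0.926. The gene lies 8.91 Mb from Pax7 on the same chromosome.

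Of 18 proteoglycans, heparan sulfate enzymes and growth factor partners, 17 were measured and 0 leading rows were called, with 1 higher and 0 lower at an unadjusted p under 0.05. The median log2 fold change was -0.02. Sdc1 and Sdc2, the other syndecans, stood at -0.02 ± 0.0646 and -0.02 ± 0.0496 per the authors' deposited table. Sulf2, an enzyme that trims sulfate from heparan chains, had 1.28 ± 0.385 in its leading row Sulf2.4 (mean count 108) with an unadjusted p of 0.000899 per the authors' deposited table. Among the receptors, Fgfr1 had -0.29 ± 0.185, Fgfr4 0.08 ± 0.0704 and the HGF receptor Met 0.00 ± 0.059 per the authors' deposited table. Ext2, an enzyme that builds the heparan chain, stood at -0.09 ± 0.0753 there. Fgf6 has no row and was not analysed here.

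Calcr, the calcitonin receptor, holds mouse muscle stem cells at rest through protein kinase A and is known to disappear from them after activation. It lies on chromosome 6 from 3685680 to 3764714 (minus strand, 16 exons) and has 1 row, although RefSeq lists 4 transcripts. With a mean normalized count of 29.1 it was the least abundant of the 10 per the authors' deposited table. Its fitted mean was 31.1 in Psat1iKO and 27.2 in Ctrl, a log2 fold change of 0.20 ± 0.538 per the authors' deposited table. The interval ran from 0.552 to 2.38 for the fold, so a 2-fold rise lay inside it. A change of 3.82-fold would have been needed for a call, taking the largest p among called rows, 0.000325, as the limit.

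Around Calcr, 16 genes of its ligands, partners and signal chain were all measured with 0 leading rows called, 0 higher and 1 lower at an unadjusted p under 0.05. The median log2 fold change was -0.03, and 12 of the 16 lay below 0. Col5a1, a chain of collagen V, which is a ligand of the receptor in mouse muscle, had -0.67 ± 0.207 in its leading row with an unadjusted p of 0.00127 per the authors' deposited table. Its other row, with 47.1% of the counts, had 0.25 ± 0.23 per the authors' deposited table. The other chains stood at -0.06 ± 0.0374 for Col5a2 and -0.03 ± 0.149 for Col5a3.1 per the authors' deposited table. The kinase subunit Prkaca.1 had -0.05 ± 0.0278, and a calcitonin-family peptide gene, Calcb.2, had -0.89 ± 0.625 on a mean count of 13.8 per the authors' deposited table. Yap1, in its leading row Yap1.1, had -0.04 ± 0.147 there.

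Cxcr4, the receptor of the chemokine CXCL12 and a sorting antigen of muscle stem cells, had the smallest unadjusted p of the leading rows. The gene lies on chromosome 1 from 128588199 to 128592293 (minus strand, 2 exons). Its leading row had a fitted mean of 1115 in Psat1iKO and 828 in Ctrl, with a log2 fold change of 0.43 ± 0.279 and an unadjusted p of 0.124 per the authors' deposited table (DESeq2 adjusted p = 0.99999). The interval for the fold was 0.922 to 1.97. A minor row, Cxcr4.1, pointed the other way at -4.10 ± 2.27 (DESeq2 adjusted p = 0.916 per the authors' deposited table). Its fitted mean was 2.09 in Psat1iKO and 35.8 in Ctrl, and it made up 1.91% of the gene's counts. Summed over both rows the log2 change was 0.37, with no test.

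Of 10 genes of the CXCL12 route, 9 were measured and 0 leading rows were called, also 0 in both directions at an unadjusted p under 0.05. Their median log2 fold change was -0.02. Cxcl12 itself had 0.13 ± 0.168 in its leading row, with 42.5% of its counts, on a mean count of 254 per the authors' deposited table. Its other rows were Cxcl12.2 (30.2% of the counts) at 0.12 ± 0.184 and Cxcl12.1 (27.3%) at -0.20 ± 0.28 there. Ackr3, the second CXCL12 receptor, had -0.06 ± 0.088 on 4114 per the authors' deposited table. Signalling partners were as flat, with Gnai3 at -0.04 ± 0.0383, Rgs16 at -0.11 ± 0.123 and the receptor kinase Grk2 at 0.03 ± 0.0416 per the authors' deposited table. Dpp4, which cuts CXCL12, has no row and was not analysed here.

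Cd34 encodes a sialomucin of resting muscle stem cells that is also found on endothelium, fibroblast-like cells and blood progenitors. It lies on chromosome 1 from 194938819 to 194961279 (plus strand, 8 exons). Its counts were divided between 2 rows that pointed in opposite directions. The leading row Cd34 had a fitted mean of 683 in Psat1iKO and 763 in Ctrl, with a log2 fold change of -0.16 ± 0.326 per the authors' deposited table. The row Cd34.1 had a fitted mean of 351 in Psat1iKO and 254 in Ctrl, with 0.47 ± 0.418 per the authors' deposited table. Cd34.1 thus made up 34.0% of the gene in Psat1iKO and 25.0% in Ctrl, a difference in share that was not tested. The gene total came to 1034 in Psat1iKO and 1018 in Ctrl, a log2 change of 0.02. RefSeq lists 2 transcripts of Cd34, and full-length and truncated forms are known in muscle stem cells of the mouse, but the rows carry no label that ties them to a form.

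Megf10, a receptor with epidermal growth factor repeats that keeps mouse myoblasts dividing, has 1 row. It lies on chromosome 18 from 57133090 to 57297467 (plus strand, 25 exons). The fitted mean was 2627 in Psat1iKO and 2696 in Ctrl, with a log2 fold change of -0.04 ± 0.167 per the authors' deposited table and an interval of 0.777 to 1.22 for the fold. Of 13 related MEGF and engulfment receptors, 12 were measured with 0 leading rows called and 0 at an unadjusted p under 0.05 in either direction, at a median of 0.03. Megf6.2 had -0.79 ± 0.776, Megf11 2.33 ± 2.69, Scarf1 -0.83 ± 0.967 and Abca7.1 0.36 ± 0.502 per the authors' deposited table, the first 3 on mean counts under 100.

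Chodl, chondrolectin, is a membrane lectin listed among the genes of resting muscle stem cells in the mouse. It lies on chromosome 16 from 78930948 to 78951733 (plus strand, 6 exons). Its leading row, with 78.2% of the counts, had a fitted mean of 55.4 in Psat1iKO and 40.5 in Ctrl and a log2 fold change of 0.45 ± 0.645 per the authors' deposited table. The interval of 0.569 to 3.29 for the fold was the widest among the leading rows. The other rows, Chodl.3, Chodl.1 and Chodl.2, had mean counts between 2.56 and 7.99 and log2 fold changes of 1.22 ± 1.78, -0.04 ± 2.23 and -1.28 ± 2.78 per the authors' deposited table. These rows are too sparse to show a direction.

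Spry1, an inhibitor of receptor tyrosine kinase signalling through ERK, was the 1 gene without a dominant row. It lies on chromosome 3 from 37639947 to 37644598 (plus strand), and its 4 rows match RefSeq's 4 transcripts in number. The leading row Spry1.1 had a fitted mean of 319 in Psat1iKO and 375 in Ctrl, with a log2 fold change of -0.23 ± 0.404 per the authors' deposited table. The row Spry1 had 255 in Psat1iKO and 340 in Ctrl, with -0.42 ± 0.283 and an unadjusted p of 0.14 per the authors' deposited table. The other rows pointed upward, Spry1.3 at 0.68 ± 1.08 and Spry1.2 at 0.41 ± 1.63 per the authors' deposited table. Spry1.1 and Spry1 together had lower fitted means in Psat1iKO and the other 2 rows higher ones, none of them called. The sum of the 4 rows was 907 in Psat1iKO and 936 in Ctrl, a log2 change of -0.04.

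Relatives and partners of Spry1 in the feedback on ERK numbered 15, all measured, with 0 leading rows called, and 0 higher and 1 lower at an unadjusted p under 0.05. The median log2 fold change was -0.03, with 5 genes above 0 and 10 below. Dusp5, a phosphatase of ERK that is induced by it, had the smallest unadjusted p of 0.00484 at -0.24 ± 0.0838 per the authors' deposited table. Dusp4 had -0.15 ± 0.0962, Spred1.1 -0.06 ± 0.0415 and Spry4 -0.18 ± 0.169 per the authors' deposited table. Spry2, the closest relative by name and of similar function, had 0.00 ± 0.107 on a mean count of 1951 there. Dusp6, a standard readout of ERK signalling, had -0.02 ± 0.133 per the authors' deposited table.

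**Figure D2:**
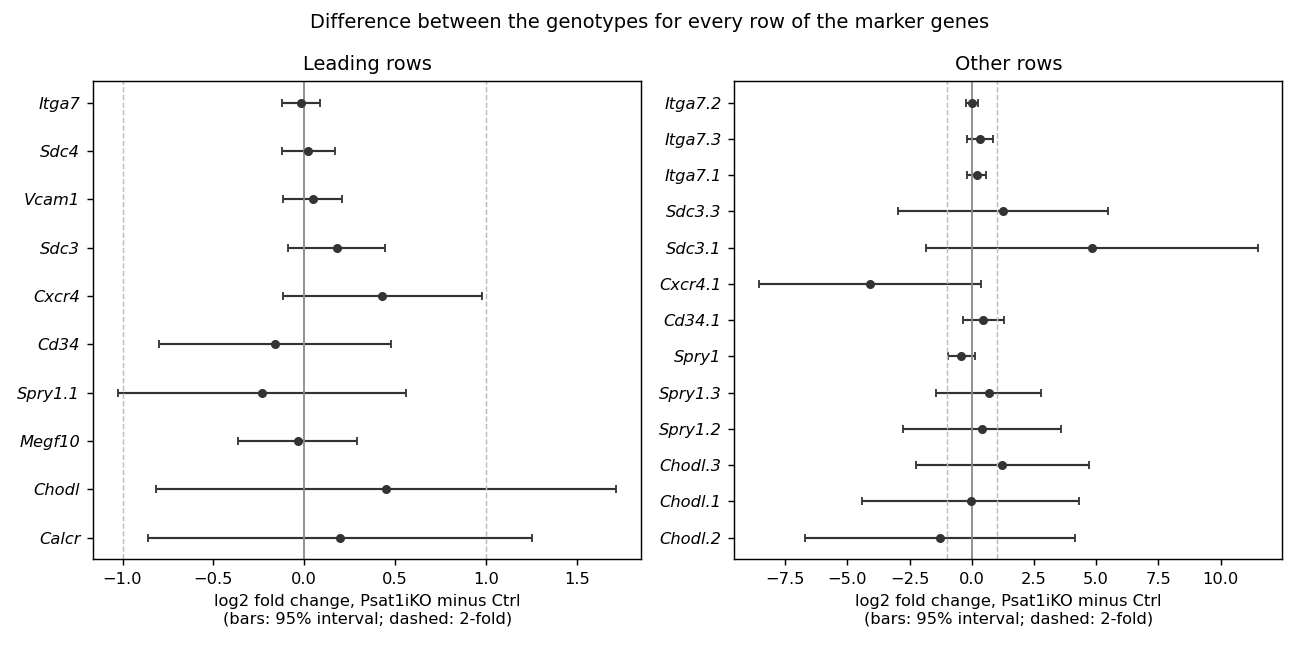
Log2 fold change of each row (Psat1iKO minus Ctrl, 4 libraries each) with its 95% interval, for the 10 leading rows on the left and the other 13 rows on the right; dashed lines mark a 2-fold change and the 2 panels have different scales. Every interval crosses 0, and those of Itga7, Sdc4 and Vcam1 are the narrowest among the leading rows.

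**Figure D3:**
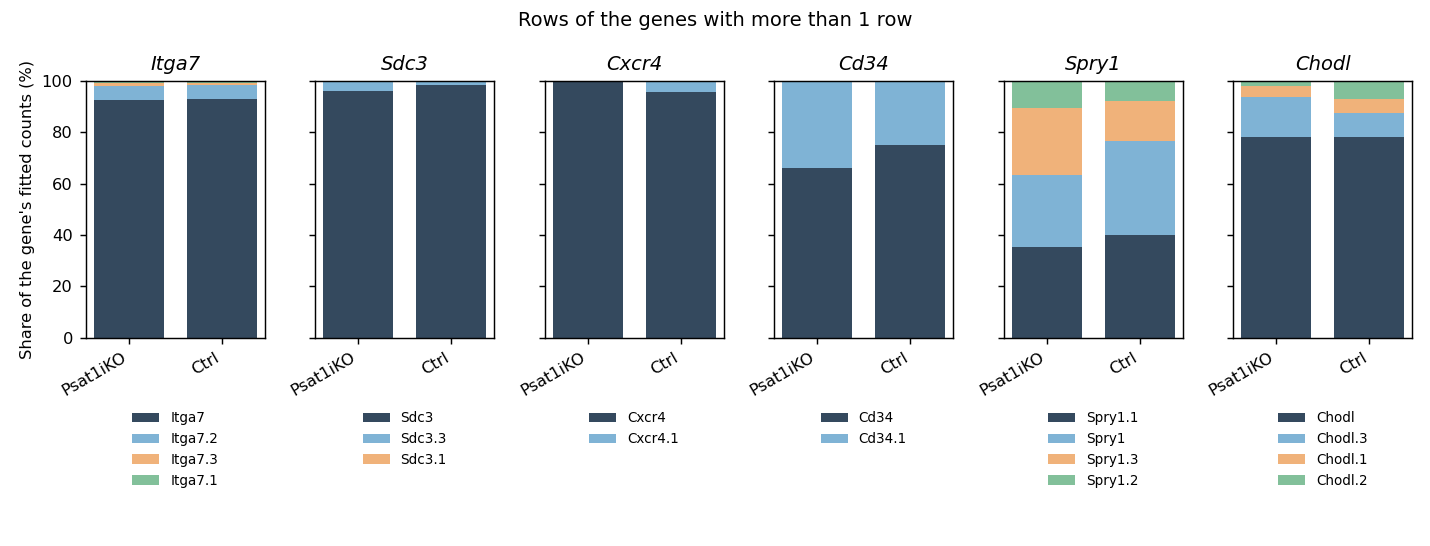
Share of the fitted counts of a gene that falls to each of its rows (percent, stacked to 100%), for the 6 genes with more than 1 row, with Psat1iKO on the left and Ctrl on the right of each pair. Cd34.1 takes 34.0% in Psat1iKO and 25.0% in Ctrl, Spry1 is spread over 4 rows, and the other genes have a leading row with most of the counts.

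The leading rows of most of the 10 genes had a larger SE than leading rows of other genes at the same level. This comparison, its neighbours and its 80% line were all chosen after values were seen, and it is a description with no test. For each leading row the SE was set beside those of the 200 leading rows nearest in mean count. It exceeded more than 80% of them for 7 of the 10 genes, a share of rows that was 19.8% over all leading rows. The values were 98.0% for Cxcr4, 95% for Cd34, 93.0% for Megf10, 91.5% for Spry1.1, 91.0% for Sdc3, 84.0% for Sdc4 and 83.0% for Vcam1. Cxcr4 had an SE of 0.279 where the median of its neighbours was 0.107, and Megf10 had 0.167 where it was 0.0708. The comparison was first made with the 200 nearest of all rows, and leading rows replaced them once it was seen that minor rows have larger SEs at the same mean count. Against all rows the count was 6 of 10, with Spry1.1 at 76.5%, and the share over all leading rows was 8.04%. With a line of 90% and leading neighbours it was 5 of 10, beside 9.91% of all leading rows. For Itga7 (54.5%), Calcr (53.5%) and Chodl (70.0%) the SE lay nearer the middle. In CV between libraries this came to 27.3% for Cxcr4, 31.9% for Cd34, 39.6% for Spry1.1, 16.4% for Megf10 and 13.3% for Sdc3. A call would have needed a change of 2.00-fold for Cxcr4, 2.25-fold for Cd34 and 2.74-fold for Spry1.1, beside 1.14-fold for Itga7, 1.202-fold for Sdc4 and 1.23-fold for Vcam1.

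**Figure D4:**
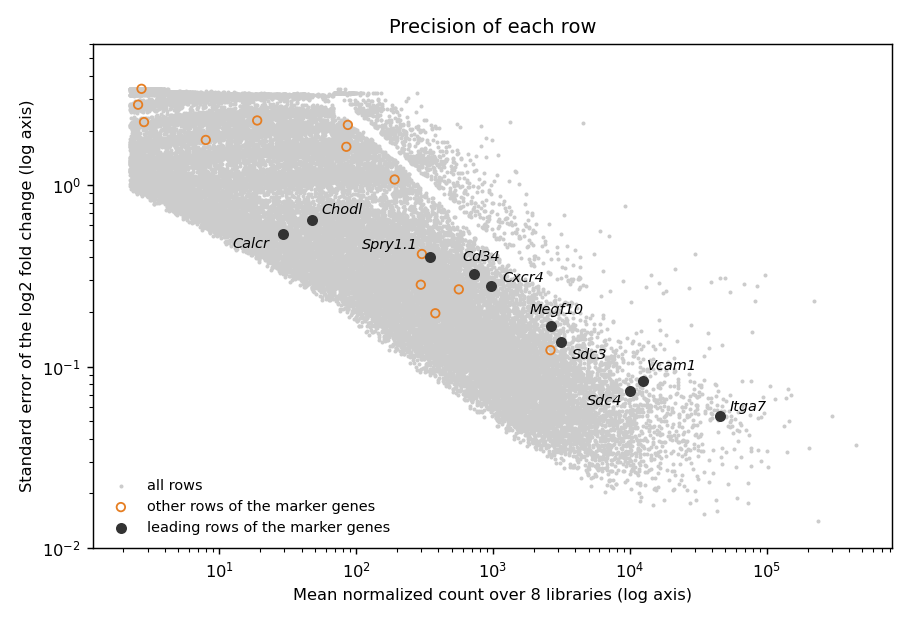
Standard error of the log2 fold change against the mean normalized count over 8 libraries (both log axes) for all 36743 rows, with the leading rows of the 10 genes as filled points and their other rows as open circles. Cxcr4, Cd34, Megf10 and Sdc3 sit high in the cloud at their level, while Itga7, Calcr and Chodl sit nearer its middle.

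Other genes of the resting state gave a similar picture. Of 24 such genes, all measured, 0 leading rows were called, with 1 higher and 0 lower at an unadjusted p under 0.05, and the median log2 fold change was 0.06 with 16 above 0 and 8 below. The leading row of Pax7 had 0.07 ± 0.188 and its other row, Pax7.3 with 44.9% of the counts, -0.36 ± 0.314 per the authors' deposited table. Rgs5, which is also a pericyte marker, had the highest value of the list at 1.04 ± 0.352, and rows of low count such as Bmp6 and Meg3.2 stood at 0.56 ± 0.54 and 0.54 ± 0.405 per the authors' deposited table. Notch1 and Notch3, receptors that keep the cells at rest, stood at 0.08 ± 0.134 and 0.08 ± 0.0831, and their targets Hes1 and Heyl at 0.12 ± 0.156 and 0.14 ± 0.234 per the authors' deposited table. Other Notch genes of the list lay at or below 0. Notch2 had -0.01 ± 0.071, Hey1 0.00 ± 0.186, Hey2 -0.14 ± 0.341, Rbpj.2 -0.03 ± 0.0761 and Dtx4 -0.05 ± 0.0993 there. Cldn5, which is also an endothelial gene, had -0.69 ± 0.49 on a mean count of 34.4 there, and Gas1 had 0.10 ± 0.0959.

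Further surface genes of muscle stem cells numbered 18, all measured, with 0 leading rows called and 0 at an unadjusted p under 0.05. Their log2 fold changes ranged from -0.29 to 0.08 with a median of 0.03, and 11 lay above 0 and 7 below. M-cadherin (Cdh15) had -0.08 ± 0.131 and the adhesion molecule Ncam1 -0.11 ± 0.0862 per the authors' deposited table. The hyaluronan receptor gene Cd44 stood at -0.09 ± 0.0553 in its leading row, while a minor row with 0.147% of the counts, Cd44.3, was called at -8.31 ± 1.98 (DESeq2 adjusted p = 0.00758 per the authors' deposited table). In the list of 18 genes of activation and commitment, Myod1 was the 1 called leading row, higher in Psat1iKO at 0.16 ± 0.0386 (DESeq2 adjusted p = 0.0058 per the authors' deposited table). The median of that list was -0.01. Ccnd1, a cyclin of entry into the cell cycle, had 0.08 ± 0.104, Myf5 had 0.09 ± 0.156, and the embryonic myosin Myh3.1 had -0.23 ± 0.304 per the authors' deposited table.

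Over all 15 related lists together, 193 of 203 genes were measured. One leading row was called, 0.518% beside 0.338% of all leading rows, and 9 passed an unadjusted p under 0.05, 4.66% beside 4.09%. The related lists were thus near the background in this comparison, as the 10 genes were.

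Leukocytes and vessel cells carry some of the 10 genes, and the measured leukocyte markers all lay below 0. Of 12 leukocyte genes, 7 were measured, on mean counts from 39.7 to 1074, and all 7 had a log2 fold change below 0 with a median of -1.69. None was called, with 0 higher and 1 lower at an unadjusted p under 0.05. Summed over the list, the fitted mean was 808 in Psat1iKO and 2949 in Ctrl, of which the lysozyme gene Lyz2 held the most, at -2.63 ± 1.14 per the authors' deposited table. Cd68 had -1.41 ± 0.763 and the pan-leukocyte gene Ptprc.8 -1.69 ± 1.04 on a mean count of 41.5 per the authors' deposited table. Csf1r, Tyrobp, Cd3e and S100a8 were among those not analysed here. The part of leukocytes in the values of Cxcr4 and Vcam1 was not tested.

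Endothelial genes, 12 of 12 measured, had mean counts from 3.36 to 100, summing to 479 in Psat1iKO and 506 in Ctrl, with a median log2 fold change of -0.60 and 0 called. Their defining marker Pecam1.2 had a mean count of 12.2 per the authors' deposited table, and Egfl7 had the highest of the list, 100. Fibro-adipogenic genes, 11 of 12 measured, ranged from 5.07 to 12417 and had a median of 0.28 with 0 leading rows called and 1 higher and 0 lower at an unadjusted p under 0.05. This was Thy1, a surface glycoprotein, at 0.28 ± 0.13 with an unadjusted p of 0.0294 per the authors' deposited table. Their defining marker Pdgfra had 60.0 and 0.51 ± 0.905 per the authors' deposited table. Of the fibro-adipogenic leading rows 9 lay above 0 and 2 below, Ly6a.3 at -0.28 ± 0.47 and Tcf7l2.5 at -0.46 ± 0.884. Col3a1, the most abundant of them, had 0.07 ± 0.0958. Pericyte and smooth muscle genes, 12 of 12 measured, ranged from 10.2 to 47464, the highest being Des, which muscle cells also make. Their median was 0.67 with 0 leading rows called and 2 higher and 0 lower at an unadjusted p under 0.05, Rgs5 and the adhesion molecule gene Mcam, the second at 0.41 ± 0.2 with an unadjusted p of 0.0427 per the authors' deposited table. Kcnj8, a potassium channel gene, had 1.65 ± 0.858 and Tagln, of a smooth muscle actin-binding protein, 0.94 ± 0.496 per the authors' deposited table. Leading rows lay above 0 for 9 of the 12 genes and below 0 for 3. Those below 0 were Abcc9.1 at -1.47 ± 3.11, Cspg4 at -0.06 ± 0.26 and Des at -0.05 ± 0.132. Notch3, also in this list, had 0.08 ± 0.0831. The minor row Myh11.2, with 19.2% of the counts of its gene, was called at 4.8 ± 1.33 (DESeq2 adjusted p = 0.0466 per the authors' deposited table). The leading row of that gene, Myh11.4, had 1.0989 ± 0.692 and was not called. Schwann cell genes, 9 of 10 measured, had a median of 0.18 and a median mean count of 34.5, with 0 called. Of these 5 lay above 0 and 4 below. Their summed fitted means went the other way from the median, with 8574 in Psat1iKO and 9423 in Ctrl. The part of these cell types in the values of Cd34 and Vcam1 was not tested. In bulk RNA, fewer cells of a type and less RNA per cell cannot be told apart.

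**Figure D5:**
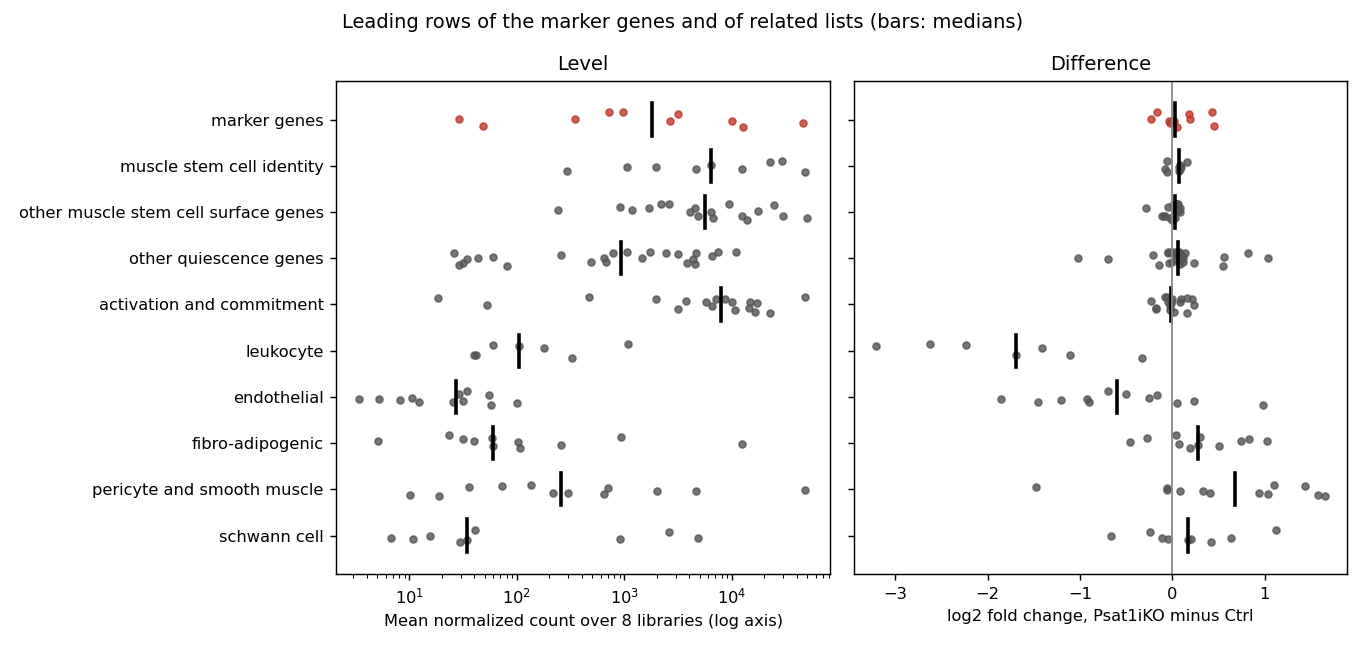
Mean normalized count over 8 libraries (left, log axis) and log2 fold change, Psat1iKO minus Ctrl (right), of the leading rows of the 10 marker genes and of 9 related lists; each point is a gene and each bar a median. The medians of the 10 genes and of the muscle stem cell lists lie close to 0, the leukocyte list has a median of -1.69 and the pericyte and smooth muscle list one of 0.67, with 0 leading rows called in either.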

How the data were processed

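The submitters' processing notes name build mm10, HISAT2 2.2.1 and, under version 4.2.0, DESeq2. How reads were counted, with which annotation, filters and strand setting, is not given in the sources used here. Each library took 250 ng of RNA, per the labels. The authors' deposited table gives, per row, a mean of DESeq2-normalized counts (a signal averaged over 8 libraries, at least 2.22), a log2 fold change with its SE, a Wald statistic (a score) and the p-value with its Benjamini-Hochberg adjusted p. Depth per library is unknown. The deposited enrichment tables give the log10 of p and q per term; 0 of the 10 genes are in them, and they served to check the sign: 26 of the 27 genes listed for rows higher in Psat1iKO had a called row past 2-fold higher here. The sign of the deposited fold changes (Ctrl over Psat1iKO) was reversed.

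Fitted group means assume equal groups and comparable libraries. Intervals are 1.96 SE on either side. The CV is SE × ln 2 × the root of 2. Levels per kb used GENCODE M21 transcripts with a RefSeq match (GRCm38, the build mm10), and coordinates come from the same annotation. Of 16477 genes with a RefSeq entry, 17 had more rows than RefSeq transcripts, and rows were not matched to isoforms. All computations used Python 3.11.15 with pandas 2.3.3 and scipy 1.17.1. The adjustment of p, the fitted means and the CV were tested on simulated data, and the other computations were not. The 10 genes and all lists were chosen with earlier results of these data known, and leading rows, the CV and the comparison of SEs after the values were seen. Named were all rows of the 10 genes, per list up to 4 genes of smallest p and any called row, and Pax7, Psat1, Myod1, Itgb1 and Cxcl12. Further genes (such as Met, Sdc1, Sdc2, Col5a3, second rows of Tln1, Lamb2 and Col5a1, Yap1, Spry2, Dusp6, Itga4, Notch1, Hes1, Heyl, Bmp6, Pdgfra and Pecam1) were named after their values were seen. Genes alike in pattern were not sought, since this needs values per library. Counts were not tested anew.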

Additional observations from a re-analysis of the deposited data

How the results depend on the processing

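The 10 genes had 0 called rows with adjustment over leading rows alone, with a mean count of at least 10 and at an adjusted p under 0.1. With a mean count of at least 100 there were also 0, but Calcr and Chodl fall out and 8 of the 10 leading rows were tested. A 2-fold limit cannot add a call. The lowest adjusted p of a leading row of the 10 genes over these was 0.99991. The count over the whole table was 241 and became 37 with adjustment over leading rows alone and 85 with a mean of at least 100, where fewer rows were tested. The direction of a leading row could turn only where the other rows enter, in 12 alternatives for the 6 genes with more than 1 row, and 9 of these kept it. Cd34 had a log2 change of -0.16 in its leading row, 0.0234 with rows summed and 0.0765 as an inverse-variance mean over its rows. Itga7 had -0.02 in its leading row and 0.00615 as an inverse-variance mean. The cause was not tested beyond the other rows entering these values. The number of the 10 genes with an SE past the line was 7, 6 against the nearest of all rows and 5 with a line of 90%; these 2 alternatives were added after seeing the data.

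No paired analysis was possible because the columns analysed carry no replicate. For the same reason edgeR, DESeq2 refits, other size factors and leaving out each library in turn were not run, so it is not known whether 1 library decides a value. Calcr, Chodl and Spry1 have leading-row intervals that reach past 2-fold.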

Other observations

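In the list of activation and commitment, 11 of 18 leading rows had an SE above those of more than 80% of the 200 leading rows nearest in mean count. The genes named here were picked after their values were seen, and no test was made. In the authors' deposited table Myog, the factor of terminal differentiation, had an SE of 0.32 on a mean count of 14298, where the median of the 200 nearest leading rows was 0.0563, and a CV of 31.4% between libraries. Mymk.1, of the fusion protein myomaker, had 0.308 beside a median of 0.0702, and Myh3.1 had 0.304 beside 0.0652. Mki67, a proliferation marker, had 0.523 beside 0.0549. Each of these 4 SEs was above those of all 200 neighbours. From the list of other genes of the resting state, Cdkn1c.1, of the cell cycle inhibitor p57, had 0.402 beside 0.0598, above 99.5% of its neighbours. Others of the activation and commitment list lay lower, with Myod1 above 28.0%, Myf6 above 38.5% and Pcna above 58.5% of their neighbours. Mcm2 lay above 71.0%, Myh8 above 75% and Ccnb1 above 78.5%.

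Among the 193 measured genes of the related lists, 36.3% had an SE above those of more than 80% of their neighbours, beside 19.8% of all leading rows. The median position was 92.0% for the leukocyte list, 89.75% for activation and commitment, 88.0% each for muscle stem cell identity and for pericyte and smooth muscle, and 87.5% for the 10 marker genes. The other lists lay between 34.5% (CXCL12) and 75.5% (integrins). These values describe spread within the genotypes and say nothing of a difference between them.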
